A study of Mus musculus with 912 samples.

Results

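The sortilin family of the mouse has 5 genes, Sorcs1, Sorcs2, Sorcs3, Sorl1 and Sort1, and all 5 were measured here in single nuclei of the hippocampus, among 42772 genes with counts and 40198 genes with log2(TPM+1) values. TPM, the share of transcripts scaled to a fixed total, corrects for transcript length, so that levels can be compared between genes. The genes were chosen by family, and the family was selected on Sorcs3, which earlier results of these same nuclei had shown as a gene that was high late after exploration and lower in FOS+ granule nuclei. Levels of Sorcs3 in the dentate gyrus (DG) groups are therefore given as a description with no test. The other 4 members were tested in every comparison, and Sorcs3 was tested only between groups of other cell types.

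Sortilin-family proteins are transmembrane receptors that share a VPS10P domain, named after a yeast vacuolar sorting receptor. They bind neurotrophin precursors, neuropeptides and lipoproteins, and they carry proteins between the Golgi, the endosomes and the cell surface with the help of adaptors and of the retromer complex. In neurons, sortilin (Sort1) pairs with the neurotrophin receptor p75 (Ngfr), SORLA (Sorl1) steers the amyloid precursor protein App, SORCS1 and SORCS2 sort synaptic receptors and neurotrophin receptors, and SORCS3 is a postsynaptic protein that binds the adaptor PICK1. Dentate granule neurons are sparsely active, and nuclei of recently active cells can be sorted by the immediate early protein FOS.

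Nuclei came from the hippocampus of female C57BL6 mice aged 7.75 to 9 weeks, with no transgene or deletion named in the labels, and were sorted one by one on the proteins PROX1, CTIP2 and FOS. Mice stayed in the home cage (HC) or explored an unfamiliar environment for 15 min and were taken 1 h, 4 h or 5 h later. In the A>A and A>C groups mice entered environment A, then 4 h later the same environment or a different one, C, and were taken 1 h after that. Nuclei of the 4 h, 5 h, A>A and A>C groups were also sorted as ARC+, so that they came from cells thought to have been active, and all of these were granule nuclei. After a second exposure, the paper took ARC+ FOS- nuclei as active in the first exposure but not in the second. ARC+ FOS+ nuclei could be reactivated or newly activated, which the protein signals alone could not separate. Nuclei of HC and 1 h mice also gave CA1, CA3, subiculum (Sub), thalamus (Th), VIP, Ivy and Pvalb labels. The labels gave 912 nuclei, of which 818 had at least 100000 aligned reads and 4000 genes. FOS- nuclei of HC or 1 h mice with Arc above a log2(TPM+1) of 2.5 were left out, which left 783, with 142275 to 5885216 counts each (median 1251690). The replicate was the mouse, taken as a mouse number within an exposure (29 mice). Number 4 of the HC group, number 4 of the 1 h group and numbers 19 and 20 of the A>A group each recur under 2 dates, and number 4 has the same labelled age on both, so one number may stand for more than one animal. Split by number and date there were 33. Nuclei were combined for each group and mouse that had at least 2 of them.

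Several features of the design bear on all values below. Both 1 h granule groups, FOS- (27 nuclei) and FOS+ (26 nuclei), came from a single mouse, and the HC granule group had 18 nuclei of mouse 6 and 5 nuclei of mouse 7. No preparation date in the sample names was shared by the HC or 1 h nuclei and the later nuclei, so time after exploration, ARC sort and date cannot be told apart between them. The HC and 1 h granule nuclei that were compared also differed in date and mouse, so date and exposure cannot be told apart there either. The A>C FOS+ mice (13 and 14) and FOS- mice (11 and 12) differed, as did their dates. Granule markers were present in every granule group, with a mean log2(TPM+1) of 4.43 to 6.50 for Prox1, a granule transcription factor, and 4.84 to 7.90 for Slc17a7, the glutamate transporter of excitatory neurons. The VIP label did not hold in 1 h mouse 2. Both of its nuclei with that label had no Vip and no Calb2 count, and their Npy levels were 8.74 and 12.3. In the nuclei labelled Th, for thalamus, the vesicular glutamate transporter gene Slc17a6 averaged 6.53 and Gad2 was at 0 in all 5. The gene Th had a count in 2 of 5.

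The genes lie on 4 chromosomes of the mm10 assembly. Sorcs3 spans chr19:48206025-48805505 on the plus strand, and Sorcs1 spans chr19:50143299-50678646 on the minus strand, 1.34 Mb beyond the end of Sorcs3. Sorcs2 spans chr5:36017180-36398139 on the minus strand. Sorl1 occupies chr9:41964720-42124297 on the minus strand, and Sort1, the shortest gene at 77.4 kb, occupies chr3:108284082-108361511 on the plus strand. The longest was Sorcs3, at 599 kb. Other annotated genes overlap each of them on the opposite strand (for example Gm26629 in Sorcs1, Psapl1 in Sorcs2, Gm16214 in Sorl1 and Gm12523 in Sort1). Smart-seq2 reads do not keep the strand, so reads from bases that both genes of a pair share cannot be told apart. Overlap of their exons was not measured.

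The 250 bases before the transcript start are shown for Sorcs3, the member that differed most between granule groups, for its chromosomal neighbour Sorcs1, and for Sorl1, whose window at the gene start held the only motif match. They are from RefSeq on GRCm38.p6, written from 5′ to 3′ on the strand of the gene. RefSeq promoters matched 3 of the 5 members, and Sorcs2 and Sort1 are named only. Both strands were searched for 4 motifs, and capitals mark a match. One was the cAMP response element TGACGTCA. Another was its half-site TGACG, which is part of the full element. The AP-1 motif that FOS dimers bind was searched as TGANTCA. The TATA box was searched as TATAAA.
Sorcs3, chr19:48205775-48206024: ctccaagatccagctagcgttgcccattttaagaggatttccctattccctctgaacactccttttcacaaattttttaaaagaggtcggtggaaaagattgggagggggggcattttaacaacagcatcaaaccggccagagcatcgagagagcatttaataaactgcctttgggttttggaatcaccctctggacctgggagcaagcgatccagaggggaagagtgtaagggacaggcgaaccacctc
Sorcs1, chr19:50678647-50678896: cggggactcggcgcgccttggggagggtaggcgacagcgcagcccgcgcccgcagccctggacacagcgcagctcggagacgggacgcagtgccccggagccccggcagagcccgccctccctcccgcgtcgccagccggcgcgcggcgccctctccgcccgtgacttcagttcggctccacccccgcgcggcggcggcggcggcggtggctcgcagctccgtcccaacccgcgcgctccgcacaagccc
Sorl1, chr9:42124298-42124547: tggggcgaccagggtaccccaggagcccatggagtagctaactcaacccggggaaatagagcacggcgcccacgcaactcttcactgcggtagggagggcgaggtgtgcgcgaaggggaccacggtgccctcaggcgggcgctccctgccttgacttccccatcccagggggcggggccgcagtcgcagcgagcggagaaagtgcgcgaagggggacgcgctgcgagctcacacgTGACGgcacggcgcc
None of the 4 motifs occurred in these windows of Sorcs3 and Sorcs1, and the window of Sorl1 held 1 half-site, 15 bases before the start. Across 32851 promoters of the same length, 1.55% held the full element, 17.8% the half-site, 6.75% the AP-1 motif and 12.4% the TATA box. Base composition separated the neighbours. The Sorcs3 window had 48.4% G and C and 6 CpG dinucleotides, near the medians over all promoters of 52.4% and 6, whereas the Sorcs1 window had 79.6% and 41, and that of Sorl1 69.6% and 26. A second RefSeq promoter of Sorl1, at chr9:42077214-42077463 inside the gene, had 47.2%, 9 CpG and no match.

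Sorcs3 was nearly silent in granule nuclei of HC mice and in both 1 h groups, and it had the highest group mean of the 5 members in every later FOS- group. It had a count in 6 of 18 nuclei of HC mouse 6 and 0 of 5 of HC mouse 7, with mean log2(TPM+1) levels of 0.43 and 0.00. In the 1 h mouse it had a count in 6 of 27 FOS- nuclei (mean 0.50) and in 0 of 26 FOS+ nuclei, which allows a share of up to 11.5% (3 nuclei of 26; the exact 95% upper limit is 13.2%). The summed 1 h FOS- nuclei held 659 counts of Sorcs3, or 16.9 CPM (counts scaled to a fixed library total). Taking 3 counts as the limit for the 35184069 counts of the FOS+ sum, its level there was at least 198-fold lower, a bound for counting error only. This fold describes few nuclei of one mouse, since 2 of the 27 FOS- nuclei had levels of 6.07 and 6.21 and the other 4 with a count had 0.25 to 0.37. Counts of PCR-amplified reads are not independent molecules, and all intervals and limits here cover counting error alone.

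At 4 h the mean levels were 5.56 and 5.63 in mice 17 and 21, with counts in 39 of 42 and 25 of 26 nuclei. At 5 h they were 5.03, 5.77, 6.05 and 6.08 in mice 23, 22, 9 and 8, with counts in 6 of 6, 10 of 10, 18 of 21 and 21 of 22 nuclei. All 6 of these mice lay above both HC mice and the 1 h mouse, and the groups did not overlap. In the edgeR fit over summed counts, the log2 difference from HC was 6.95 (SE 1.37) at 4 h and 7.06 (SE 1.35) at 5 h, with HC mice shared by both comparisons. Without HC mouse 6, the remaining HC sum had no count of Sorcs3, and these fitted differences are then no measure of size. With the Arc filter off they were 4.06 and 4.17, and with limma on mean log2(TPM+1) they were 5.38 and 5.52. Among all genes, 60 of 24405 (0.246%) were called at 4 h and 64 (0.262%) at 5 h.

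After a second exposure, Sorcs3 was high in FOS- granule nuclei, at 4.75 to 6.56 by mouse beside 5.03 to 6.08 at 4 h and 5 h, and FOS+ nuclei held less. In A>A FOS- nuclei the lowest, median and highest of 6 mice were 5.42, 5.74 and 6.45 (mean 5.82 ± 0.38, SD). In A>A FOS+ nuclei they were 0.66, 3.68 and 4.60 (mean 3.22 ± 1.51, SD, n = 6). The groups did not overlap, and the spread was wider among FOS+ mice. In A>C mice the FOS- levels were 6.56 (19 of 19 nuclei with a count) and 4.75 (21 of 27), and the FOS+ levels were 0.47 (5 of 24) and 0.89 (4 of 24). Again no FOS+ mouse reached a FOS- mouse. The edgeR log2 difference between FOS+ and FOS- sums was -1.16 (SE 0.62) for A>A (-1.78 with the mouse as a block and -2.60 with limma on mean levels) and -4.22 (SE 1.21) for A>C, and between the FOS+ nuclei of A>A and A>C it was 3.59 (SE 1.09). Of all genes, 10 (0.041%) were called between A>A FOS+ and FOS-, and 0% were called in the other 2 comparisons.

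**Figure D1:**
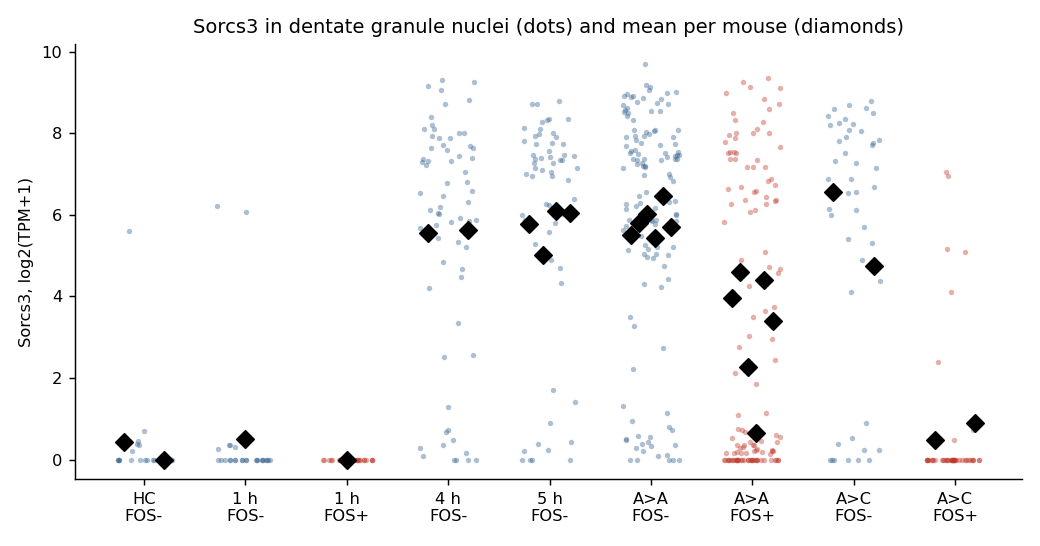
Sorcs3 in granule nuclei by exposure and FOS sort. The y axis is log2(TPM+1), each dot is a nucleus (blue FOS-, red FOS+) and each black diamond is the mean of one mouse. Means lie between 0.00 and 0.50 in the HC and 1 h groups, between 4.75 and 6.56 in the later FOS- groups, and between 0.47 and 4.60 in the later FOS+ groups.

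In the plot of single nuclei, FOS+ groups had fewer nuclei with Sorcs3 than FOS- groups, and the pooled median level where it was counted was lower. Shares of nuclei with a count were 26.1% in HC, 94.1% at 4 h and 93.2% at 5 h, and 96.1% in A>A FOS-, 73.1% in A>A FOS+, 87.0% in A>C FOS- and 18.8% in A>C FOS+ nuclei. These shares pool nuclei of several mice, and by mouse they ran from 39.1 to 100% in A>A FOS+ and were 20.8 and 16.7% in A>C FOS+ nuclei. Where it was counted, the median level was 6.99 in A>A FOS- and 4.71 in A>A FOS+ nuclei, and 7.21 and 4.11 in A>C FOS- and FOS+ nuclei. By mouse this median ran from 6.05 to 7.34 in A>A FOS- and from 0.37 (mouse 25) to 6.55 (mouse 16) in A>A FOS+ nuclei, and in A>C FOS+ nuclei it was 0.86 over 5 nuclei of mouse 13 and 5.13 over 4 nuclei of mouse 14. Depth differed as well, with a median of 2133200 counts in A>A FOS- nuclei, 1667500 in A>A FOS+ nuclei and 742970 in A>C FOS+ nuclei. With every nucleus thinned to 100000 counts, the mean share over mice with a Sorcs3 count was 83.2% in A>A FOS-, 50.8% in A>A FOS+, 80.7% in A>C FOS-, 14.6% in A>C FOS+, 84.0% at 4 h, 82.2% at 5 h and 2.78% in HC, and it was 7.41% in the 1 h FOS- nuclei, with none of the 1 h FOS+ nuclei having one.

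Within single A>A mice the direction was the same. Mice 24, 25, 26 and 27 gave both FOS- and FOS+ nuclei. The mean level of Sorcs3 was 6.03, 5.42, 6.45 and 5.69 in their FOS- nuclei and 2.27, 0.66, 4.40 and 3.41 in their FOS+ nuclei. These are differently sorted nuclei, and the FOS+ nuclei may include cells that were not active in the first exposure. The mean difference within mice was -3.22 (SD 1.28, lower in 4 of 4 mice). Mouse 25 had the lowest FOS+ level, with a count in 9 of 23 nuclei, and mouse 26 was the only one of the 4 with a count in all of its FOS+ nuclei (19 of 19).

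**Figure D2:**
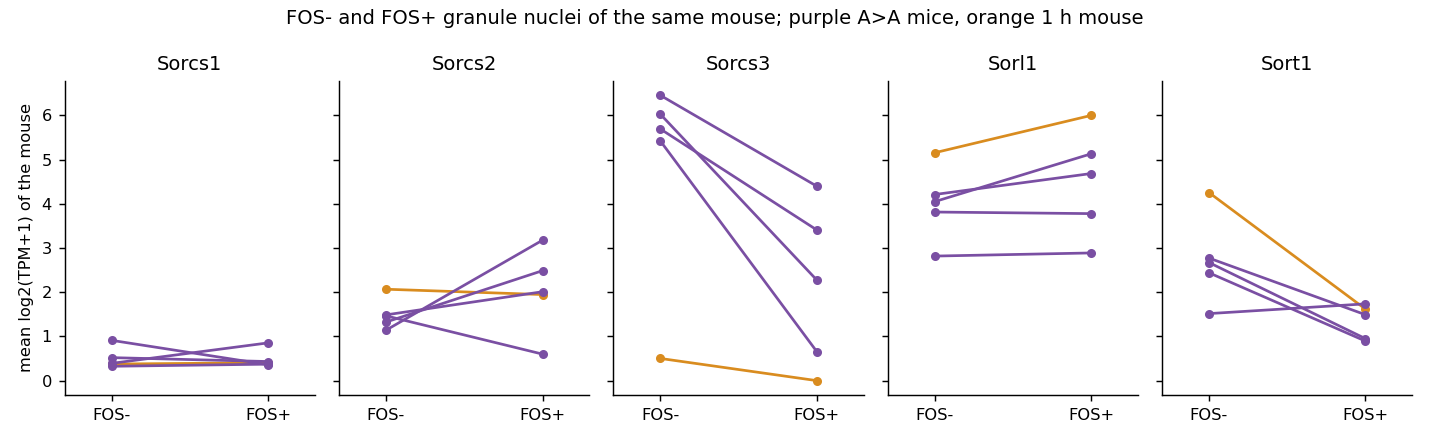
Mean log2(TPM+1) (y axis) of the 5 members in FOS- and FOS+ granule nuclei of the same mouse. Purple lines are the 4 A>A mice and the orange line is the 1 h mouse. Sorcs3 falls in all 4 A>A mice, Sort1 falls in 3 of 4 and in the 1 h mouse, and Sorcs1, Sorcs2 and Sorl1 go both ways.

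Markers of other cells were present at low levels in the granule groups. The interneuron gene Gad2 averaged 0.15 to 0.23 in the HC and 1 h groups and 0.55 to 0.83 in the later groups. Of 12 glial and vascular genes, 0 to 8 of which were at 0 in a mouse, the summed mean TPM per mouse ran from 57.9 to 492, and the most abundant of these genes was Mbp in most mice. In the A>A mice it ran from 78.2 to 398 in FOS+ nuclei and from 101 to 492 in FOS- nuclei. The part of these cells in the differences was not tested.

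Sort1, the sorting receptor sortilin, had a lower mean level per nucleus in 1 h FOS+ granule nuclei and in all later groups than in HC or 1 h FOS- nuclei. Its mean log2(TPM+1) was 3.91 and 3.43 in the HC mice and 4.25 in 1 h FOS- nuclei. In FOS+ nuclei of that same 1 h mouse it was 1.62, and counts were found in 17 of 26 nuclei against 24 of 27. All later mice lay between 0.40 and 2.77, so that none reached the HC level. At 4 h the levels were 0.86 and 1.74, and at 5 h they were 0.40, 1.34, 1.47 and 1.58. The mean share of nuclei with a count after thinning was 68.9% in HC, 70.4% in 1 h FOS-, 26.9% in 1 h FOS+, 23.0% at 4 h and 24.5% at 5 h. How many of all genes separate from HC in this way was not counted. On mean log2(TPM+1), limma called 114 genes higher and 412 lower at 4 h, and 127 and 1507 at 5 h. Median genes per nucleus were 5660 in HC, 6209 in 1 h FOS-, 5195 in 1 h FOS+, 5488 at 4 h and 5169 at 5 h. The part of this general shift in the Sort1 levels was not tested.

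Tests of Sort1 depended on the scale. In CPM of the summed nuclei, Sort1 had 116 and 144 in the HC mice, 51.9 and 180 at 4 h, and 0.703, 71.8, 102 and 401 at 5 h. The sums overlapped where the means per nucleus did not, and the cause was not tested. Mouse 22 had the highest sum at 5 h with counts in 5 of 10 nuclei. In the edgeR fit over all genes, Sort1 differed from HC by a log2 of 0.11 (SE 1.20, adjusted p = 1) at 4 h and 0.30 (SE 1.05, adjusted p = 1) at 5 h. With limma on the means of log2(TPM+1), it fell by 2.37 (SE 0.54, adjusted p = 0.0223) at 4 h and by 2.47 (SE 0.46, adjusted p = 0.00272) at 5 h. By limma 2.29% and 7.11% of all genes were called in these comparisons, against 0.246% and 0.262% by edgeR. The FOS+ against FOS- difference of the 1 h mouse was -1.89 (SE 1.75, adjusted p = 1) by edgeR, with the spread taken from the other granule groups.

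In A>A mice Sort1 was 2.23 ± 0.48 (SD, n = 6) in FOS- nuclei against 1.53 ± 0.66 (SD, n = 6) in FOS+ nuclei, a difference of -0.70 (exact two-sided permutation test over mice, p = 0.0649). It fell by 1.72, 1.55 and 1.28 within mice 24, 25 and 26 and was 0.22 higher in mouse 27. The FOS- range was 1.52 to 2.77 and the FOS+ range was 0.89 to 2.71, and FOS+ mice 15 and 27 lay within the FOS- range. Leaving out each of the 8 mice in turn gave -0.94 to -0.50, with an exact permutation p from 0.00866 (without mouse 15) to 0.198 (without mouse 24). A>C levels were 1.81 and 1.43 in FOS- and 1.79 and 1.96 in FOS+ nuclei, which overlapped.

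**Figure D3:**
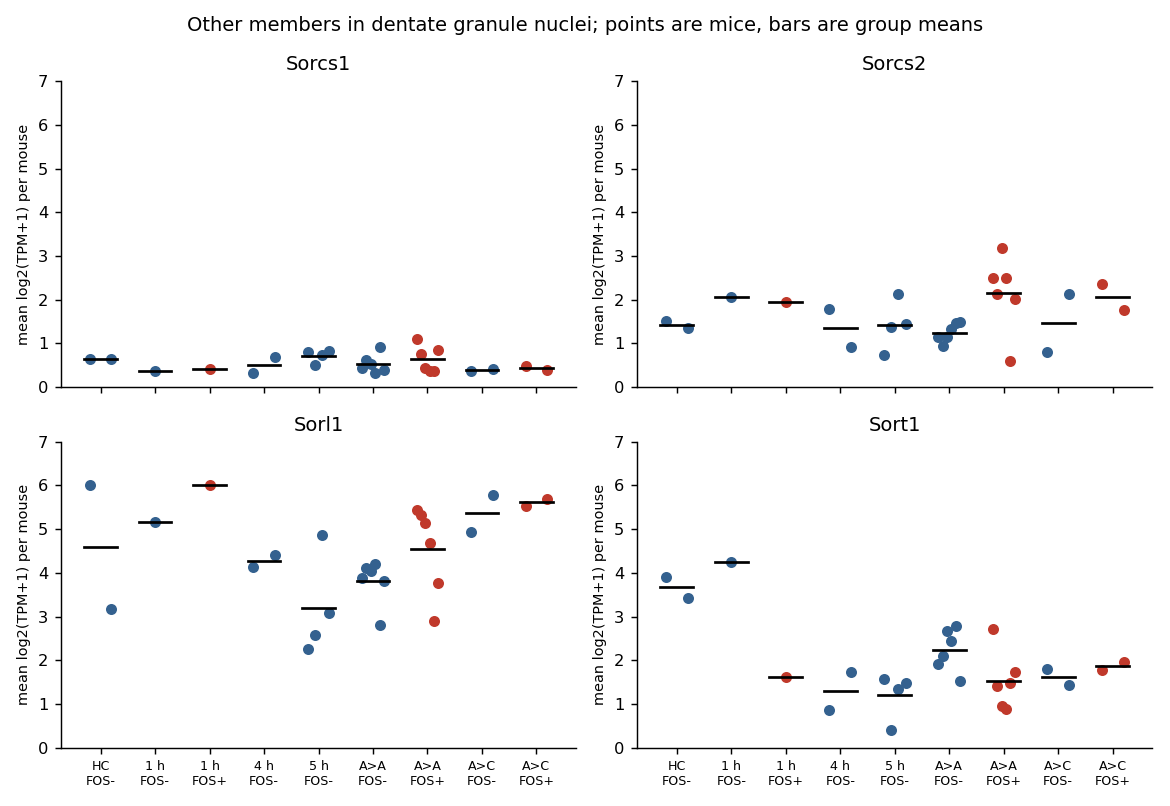
The other 4 members in granule groups, with the mean log2(TPM+1) of each mouse as a point on the y axis (blue FOS-, red FOS+) and group means as bars. Sort1 lies between 3.43 and 4.25 in the HC and 1 h FOS- mice and at or below 2.77 in all others, while Sorl1 lies between 2.25 and 6.00 with overlapping groups and Sorcs1 stays at or below 1.11.

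Sorl1, which sorts App away from amyloid-forming routes, had the highest group mean of the 5 members in granule nuclei of HC and 1 h mice. Its levels were 6.00 and 3.18 in the HC mice, 5.15 in 1 h FOS- and 6.00 in 1 h FOS+ nuclei. At 4 h they were 4.14 and 4.41, and at 5 h 2.25, 2.59, 3.08 and 4.86. HC mouse 7, with 5 nuclei, lay within the 5 h range, and the groups overlapped. The edgeR log2 difference from HC was -0.94 at 5 h (SE 0.46, p = 0.0529, adjusted p = 0.493) and 0.16 at 4 h (SE 0.54, adjusted p = 1). After a second exposure it was 3.81 ± 0.51 (SD, n = 6) in A>A FOS- and 4.54 ± 1.01 (SD, n = 6) in A>A FOS+ nuclei, which overlapped (exact two-sided permutation p = 0.156). Over left-out mice the exact permutation p ran from 0.0476 (without mouse 26, difference 0.86) to 0.290. A>C mice had 4.94 and 5.78 in FOS- and 5.53 and 5.69 in FOS+ nuclei. Between FOS+ nuclei of A>A and A>C the edgeR difference was -0.60 (SE 0.43, adjusted p = 0.99).

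Sorcs2, a partner of p75 and TrkB, had a count in 7 of 23 HC and 14 of 27 1 h FOS- nuclei, and its group means ran from 1.25 to 2.15 across all granule groups. In A>A mice it was 1.25 ± 0.21 (SD, n = 6) in FOS- nuclei against 2.15 ± 0.86 (SD, n = 6) in FOS+ nuclei, a difference of 0.90 (exact two-sided permutation p = 0.0346, 1 of 4 such tests, not adjusted). FOS+ was higher in mice 24, 25 and 27, by 2.04, 1.16 and 0.52, and fell by 0.87 in mouse 26. FOS+ mouse 26 lay below all FOS- mice and the other 5 FOS+ mice lay above them. On summed counts the edgeR log2 difference was 0.31 (SE 0.48, adjusted p = 0.899). Leaving out any one of 7 of the 8 mice gave a difference of 0.67 to 0.97 with an exact permutation p between 0.0556 and 0.111, and leaving out mouse 26 gave 1.25 (p = 0.00794). With mice split by number and date it was 0.80 (exact permutation p = 0.0846).

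Sorcs1 was the least abundant member in later granule nuclei, with group means of 0.39 to 0.72. Its A>A level was 0.53 ± 0.21 (SD, n = 6) in FOS- nuclei against 0.65 ± 0.31 (SD, n = 6) in FOS+ nuclei (difference 0.11, exact two-sided permutation p = 0.476). The edgeR log2 difference from HC was 3.28 (SE 1.91, adjusted p = 0.864) at 4 h and 2.87 (SE 1.77, adjusted p = 0.568) at 5 h. The sums differed widely between mice, at 0.875 and 27.5 CPM in 4 h mice 17 and 21 and 1.41, 3.25, 21.2 and 29.7 CPM in 5 h mice 23, 22, 9 and 8, against 1.96 and 1.59 CPM in the HC mice.

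Over the 7 granule comparisons, edgeR called 0 of the 4 tested members in each, and none had an unadjusted p under 0.05. Among all 24405 genes, 738 to 3762 per comparison were under 0.05 unadjusted. DESeq2 also called 0, with Sorcs1 alone under 0.05 unadjusted at 4 h and 5 h. It called 830 to 2038 of all genes per comparison, and 2679 and 4145 were under 0.05 unadjusted at 4 h and 5 h. By limma only Sort1 was called, at 4 h and 5 h, where 2.29% and 7.11% of all genes were called. The background of genes called by edgeR was 0.0451% between 1 h FOS+ and FOS- (11 of 24405) and 0.27% between 1 h FOS+ and HC (66 genes). At shares this low, 0 of 4 is near what the table of all genes shows.

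Among FOS- nuclei of HC and 1 h mice, Sorcs3 had its highest level with the VIP label, interneurons that mainly inhibit other interneurons. By mouse the VIP levels were 4.23 and 5.13 in HC and 0.11, 3.65 and 7.13 at 1 h, a mean of 4.05 ± 2.57 (SD, n = 5). The low value is that of mouse 2, whose 2 nuclei lacked Vip, and without them the mean was 5.03 ± 1.52 (SD, n = 4). CA1 pyramidal nuclei had 1.53 ± 1.37 (SD, n = 6), subiculum 1.23 ± 1.19 (SD, n = 5), CA3 1.09 ± 1.13 (SD, n = 3) and granule nuclei 0.31 ± 0.27 (SD, n = 3). Neighbours in this order below VIP differed by less than their spread, and the VIP and CA1 mice overlapped. Ivy nuclei had 0.19 and 3.76 in 2 mice, 5 Th-labelled nuclei of one mouse averaged 2.10, and 2 Pvalb nuclei had none. The edgeR log2 difference between CA1 and VIP was -2.15 (SE 1.80, adjusted p = 0.699), and it turned to 1.02 with the mouse as a block.

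Sorcs1 also had its highest level in VIP nuclei, at 3.24 ± 1.79 (SD, n = 5) with mouse 2 and 2.47 ± 0.66 (SD, n = 4) without it. Among the other types with at least 3 mice, subiculum followed with 1.78 ± 0.79 (SD, n = 5), then CA1 with 0.83 ± 0.60 (SD, n = 6), granule nuclei with 0.56 ± 0.16 (SD, n = 3) and CA3 with 0.44 ± 0.57 (SD, n = 3). Th-labelled nuclei of one mouse averaged 1.68 and Ivy nuclei of 2 mice 1.63 (0.00 and 3.26). Without mouse 2 the VIP mice ran from 1.66 to 3.26 and overlapped the subiculum mice, at 0.66 to 2.87. VIP and subiculum were not compared by a test. The 5 VIP mice ran from 1.66 to 6.28 and the 6 CA1 mice from 0.32 to 1.89, an overlap of HC mouse 5 with 1 h mouse 10. In the edgeR fit the CA1 sums were lower than the VIP sums by a log2 of -5.51 (SE 1.34, p = 0.000509, adjusted p = 0.0872), and granule sums by -6.41 (SE 1.93, p = 0.0033, adjusted p = 0.203). Neither was called, whereas DESeq2 called both, at -5.62 (adjusted p = 3.84e-06) and -6.69 (adjusted p = 9.48e-06). DESeq2 was run only with 1 h mouse 2 included. Without 1 h mouse 2 the edgeR difference between CA1 and VIP was -4.78 (adjusted p = 0.306), and without 1 h mouse 5 it was called (adjusted p = 0.0483). Between subiculum and CA1 it was 3.02 (SE 1.20, p = 0.0204, adjusted p = 0.427).

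Sorl1 and Sort1 were spread over most types. Sorl1 was highest in CA1 (6.26 ± 1.28, SD, n = 6), followed by subiculum (5.27 ± 0.89, n = 5), granule nuclei (4.78 ± 1.45, n = 3), CA3 (4.70 ± 1.48, n = 3) and VIP nuclei (3.90 ± 2.30, n = 5, or 2.91 ± 0.71 without mouse 2). Sort1 was highest in CA3 (5.20 ± 1.42, n = 3) and subiculum (4.88 ± 2.10, n = 5), with 3.87 ± 0.41 in granule nuclei (n = 3), 3.35 ± 1.61 in CA1 (n = 6) and 2.72 ± 0.91 in VIP nuclei (n = 5). Neighbours among these 5 types overlapped in both orders. Sorcs2 had a mean of 4.83 in the 5 Th-labelled nuclei, 2.47 ± 1.49 in CA3 (n = 3) and 0.45 ± 0.64 in VIP nuclei (n = 5). In 5 comparisons of types, edgeR called 0 members, and Sorcs1 alone had an unadjusted p under 0.05, in 3 of them. Among all 21424 genes, 2408 were under 0.05 unadjusted for DG against VIP, 2641 for CA1 against VIP and 2148 for subiculum against CA1. Shares of all 21424 genes called were 0.103% for DG against CA1, 0.303% for DG against VIP, 0.345% for CA1 against VIP, 0.00934% for subiculum against CA1 and 0% for CA3 against CA1. DESeq2 called 5.04% for DG against VIP and 5.14% for CA1 against VIP.

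**Figure D4:**
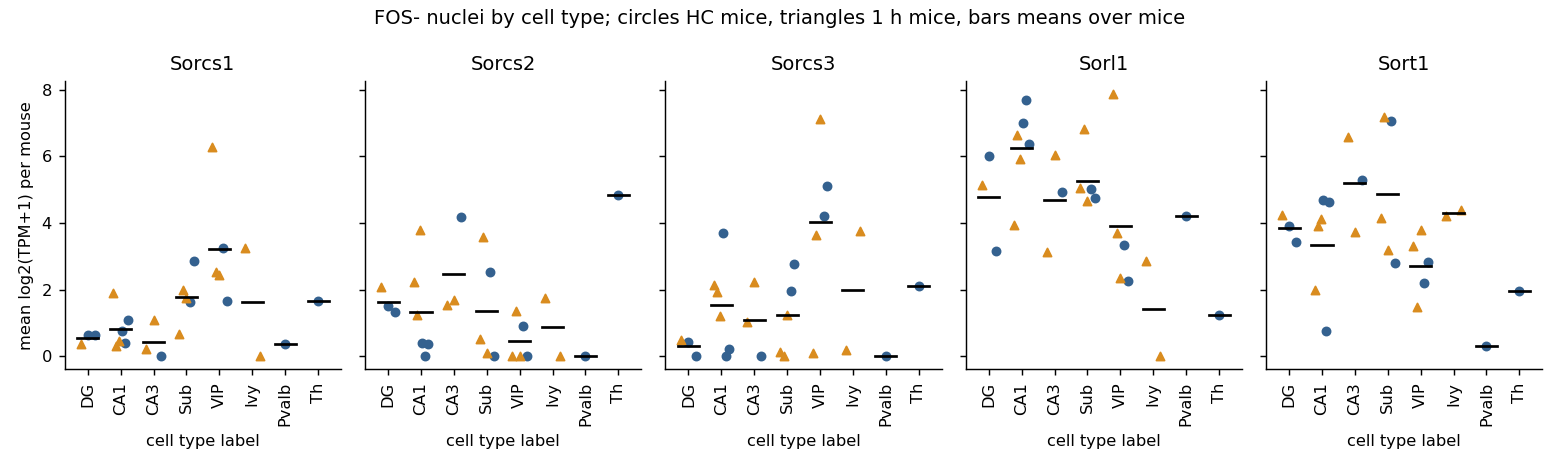
Mean log2(TPM+1) per mouse (y axis) of the 5 members in FOS- nuclei by cell type label, with HC mice as circles, 1 h mice as triangles and means over mice as bars. Sorcs1 and Sorcs3 have their highest means in VIP nuclei, where 1 h mouse 2 is the highest for Sorcs1 and the lowest for Sorcs3, Sorl1 lies between 3.94 and 7.69 in the 6 CA1 mice, and Sorcs2 stays at or below 1.36 in VIP mice.

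At 1 h after exploration, no member was called between FOS+ and FOS- nuclei of the other cell types. In VIP nuclei Sorcs3 had mean levels of 5.18 and 5.19 in the FOS+ nuclei of mice 4 and 5, which had 3.65 and 7.13 in their FOS- nuclei. The edgeR log2 difference was 0.26 (SE 1.80, adjusted p = 1). CA1 nuclei had 1.75, 2.66 and 0.51 in FOS+ and 2.15, 1.93 and 1.23 in FOS- nuclei of mice 10, 2 and 4, a difference of -0.74 (SE 2.14, adjusted p = 1). In subiculum Sorcs3 was 4.53, 1.65 and 0.79 in FOS+ and 0.14, 0.00 and 1.23 in FOS- nuclei of the same mice. Here the difference of 3.80 (SE 2.04, adjusted p = 0.584) rested on few nuclei, 11 in each group. It was 1.24 without mouse 10, and was not called. Without mouse 4 the FOS- sums held 1 count of Sorcs3 in all, so no size is given. Sorcs1 in VIP nuclei was 1.59 and 1.88 in FOS+ against 2.54 and 2.44 in FOS- nuclei, lower in both mice (edgeR -1.98, SE 1.14, adjusted p = 0.915). Sorcs2 in these mice was 2.00 and 2.76 in FOS+ against 1.36 and 0.00 in FOS- nuclei, higher in both (edgeR 2.17, SE 2.93, adjusted p = 1). For both genes the FOS+ mice did not overlap the 3 FOS- mice. The third of these was mouse 2, with 6.28 for Sorcs1 and 0.00 for Sorcs2, whose 2 nuclei lacked Vip. The share of all genes that separate in this way between so few mice was not counted.

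For CA1, VIP, subiculum and CA3, edgeR called 0 of the 5 members and 0% of all genes between FOS+ and FOS-, and no member had an unadjusted p under 0.05. Unadjusted, 629, 850, 1462 and 402 genes were under 0.05. DESeq2 called 213, 416, 582 and 128 genes, again with none of the members, and limma called 0, 0, 0 and 1.

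Around the family, 40 partner genes were listed by role: retromer and sorting nexins, tail adaptors, ligands and cargo, co-receptors and kinases, and proteases that cut the receptors or their cargo. The list was made with earlier results of these data known. Of all 24405 genes, edgeR called 0.0451% between 1 h FOS+ and FOS- granule nuclei. Against HC it called 0.27% in 1 h FOS+ nuclei, 0.246% at 4 h and 0.262% at 5 h. In granule nuclei 39 of the partner genes passed the filter on low counts. The one of them called by edgeR was Bdnf, the neurotrophin whose precursor binds sortilin. Its mean log2(TPM+1) was 5.06 and 6.02 in the HC mice, 3.55 in 1 h FOS- and 9.62 in 1 h FOS+ nuclei, 8.69 and 9.08 at 4 h, and 6.94, 8.05, 8.52 and 8.60 at 5 h. All later and FOS+ mice of these groups lay above the HC mice. It was higher than HC by an edgeR log2 of 2.94 (SE 0.48, adjusted p = 0.0067) in 1 h FOS+ nuclei, 2.63 (SE 0.43, adjusted p = 0.00607) at 4 h and 2.09 (SE 0.39, adjusted p = 0.0237) at 5 h. Without HC mouse 7 the adjusted p was 0.129, 0.164 and 0.303. The 4 h call was also lost without 4 h mouse 21 (0.0800), and the 5 h call without HC mouse 6 (0.0756) and with DESeq2 size factors (0.0541). Against 1 h FOS- nuclei the difference was 3.56 (SE 0.64, adjusted p = 0.0413), with both groups from one mouse and the spread taken from the other granule groups. It was not called with the mouse as a block (adjusted p = 0.351), with DESeq2 size factors (0.109), without the filter on low counts (0.0564), with the lower nucleus filter (0.0641), with mice by number and date (0.117), or in 9 of 20 fits that left out a mouse (up to 0.107).

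After a second exposure Bdnf was not called between FOS groups. It averaged 7.73 ± 0.95 (SD, n = 6) in A>A FOS- and 8.83 ± 0.63 (SD, n = 6) in A>A FOS+ nuclei, an edgeR difference of 0.31 (SE 0.23, adjusted p = 0.634), and the groups overlapped. In A>C mice it was 8.94 and 7.14 in FOS- and 9.14 and 9.06 in FOS+ nuclei, which did not overlap (edgeR 0.60, SE 0.41, adjusted p = 0.905). In VIP nuclei Bdnf had 1 count in all FOS- nuclei together, so no fold is given for the calls against VIP.

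Ntrk2, the BDNF receptor TrkB, stood at 7.41 in 1 h FOS+ against 3.46 in 1 h FOS- nuclei, and at 6.03 ± 0.94 (SD, n = 6) in A>A FOS+ against 3.49 ± 0.94 (SD, n = 6) in A>A FOS- nuclei. The edgeR log2 differences were 3.20 (SE 0.75, adjusted p = 0.243) and 1.23 (SE 0.29, adjusted p = 0.153). DESeq2 called both, at 3.37 (adjusted p = 0.000768) and 1.21 (adjusted p = 0.00578), and limma called the A>A difference of mean levels, at 2.53 (adjusted p = 0.0136). These settings also called more of all genes, DESeq2 4.06% and 3.4% and limma 1%. Both 1 h groups are one mouse, with the spread taken from the other granule groups. Ngfr, which encodes p75, was near 0 in all granule groups, at 0.04 to 0.14. Levels of App, the cargo of SORLA, were 6.10 and 8.10 in the HC mice and 1.29 to 7.40 over the 5 h mice, which overlapped. The median log2 difference over the 39 partner genes was 0.09 at 4 h, where that over all genes was 0.23, and 0.00 at 5 h against 0.00. In the A>A comparison it was -0.06 against -0.02, with 0 partner genes called and 3 under an unadjusted p of 0.05. Among all 24405 genes, 3762 were under it there. In the 1 h comparisons of other cell types 35 to 37 partner genes were tested and 0 were called. Unadjusted, 2 were under 0.05, 1 each in CA1 and subiculum, beside 629 and 1462 of all genes there.

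In the other roles edgeR called no gene in a granule comparison. Of the retromer and sorting nexins, which carry cargo back from endosomes, Vps29 had mean levels of 4.58 in HC and 3.37 at 5 h. Snx3 had 4.12 and 2.57. On this scale limma called 127 of all genes higher and 1507 lower at 5 h. The median edgeR log2 difference from HC over the 10 retromer and sorting nexin genes was 0.16 at 4 h and -0.24 at 5 h. Over all genes it was 0.23 and 0.00. Of the tail adaptors, which load the receptors into clathrin coats, Ap2b1 had 8.20 in 1 h FOS+ against 3.16 in 1 h FOS- nuclei, an edgeR log2 difference of 2.63 (SE 1.42, adjusted p = 1), and 5.91 in A>A FOS+ against 4.32 in A>A FOS- nuclei (0.87, SE 0.55, adjusted p = 0.515). Its partner subunit Ap2m1 had 5.50 against 7.15 and 6.03 against 6.56 in the same groups (-0.39, SE 0.63, adjusted p = 1, and -0.60, SE 0.26, adjusted p = 0.288). Among the proteases, the beta-secretase gene Bace1 had 2.69 in HC and 1.81 at 5 h (edgeR -1.11, SE 0.86, adjusted p = 0.637), while the median log2 difference of the 5 proteases was 0.75 against 0.00 over all genes. The neurotrophin receptor gene Ntrk3 lay between 4.23 and 6.78 over the granule groups. These genes were among the most abundant of each role.

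The genes most like Sorcs3 over the 26 sums of granule nuclei were sought among 8129 genes by Pearson correlation of the mean log2(TPM+1). Ppapdc1a, a lipid phosphatase gene, had an r of 0.92, Ptprz1, a receptor tyrosine phosphatase, 0.90, and Fam19a1, which encodes a secreted protein, Bhlhe41, a transcriptional repressor, and Pxdn, a peroxidase of the extracellular matrix, 0.89 each. The sums share mice, dates and depth, so this is a description. No member of the family was among them, with an r of -0.33 for Sort1, -0.48 for Sorcs2 and -0.49 for Sorl1, and Sorcs1 was below the mean level of 1 needed. Group levels show the shared form. Ppapdc1a was 1.06 in HC, 0.05 in 1 h FOS+, 5.75 at 4 h, 5.23 in A>A FOS-, 3.23 in A>A FOS+ and 0.87 in A>C FOS+ nuclei. Fam19a1 differed from Sorcs3 at 1 h, with 7.11 in FOS- and 4.70 in FOS+ nuclei against 4.94 in HC.

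**Figure D5:**
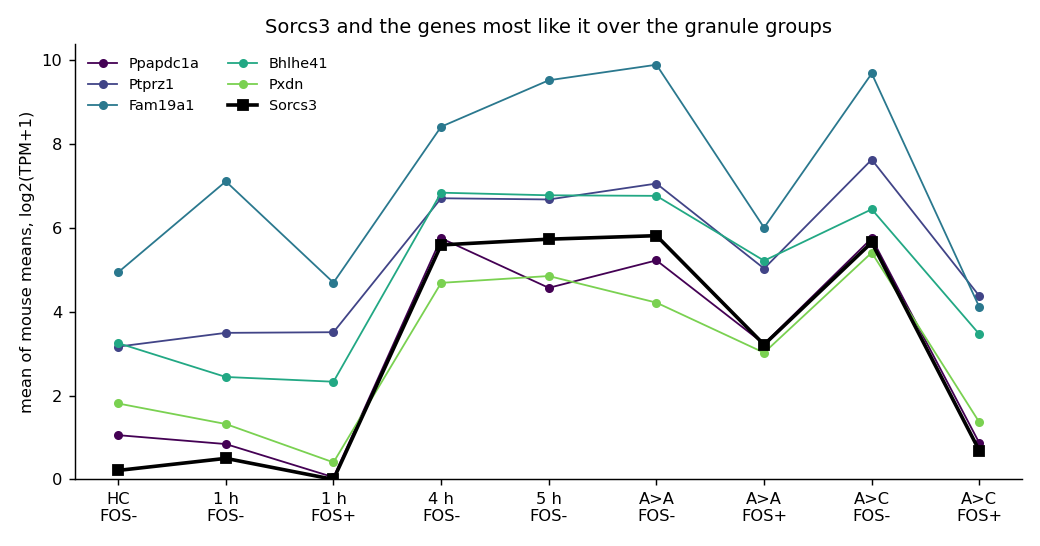
Sorcs3 (black squares) and the 5 genes most like it over granule sums, as means of mouse means in log2(TPM+1) (y axis) for each exposure and FOS group. All 6 genes are higher in the 4 later FOS- groups than in HC and lower in A>A and A>C FOS+ nuclei than in the FOS- nuclei beside them.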

How the data were processed

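Single nuclei were sequenced with Smart-seq2 and Nextera XT on a HiSeq 2500 (single-end, polyA RNA). After trimming, the authors mapped reads with Bowtie to mm10 (Ensembl annotation), estimated expression with RSEM and deposited estimated counts (expected counts) per gene, all whole numbers here, and log2(TPM+1) values per gene. The members and gene lists below were chosen with earlier results of these data known. Of 912 nuclei, 818 had 100000 or more aligned reads and 4000 or more genes whose log2(TPM+1) exceeded 1, and 35 FOS- nuclei of HC or 1 h mice with Arc above 2.5 were left out. Counts were summed for each group and mouse with at least 2 nuclei (mouse number within exposure, 29 mice), and a mean of log2(TPM+1) was taken for levels. Levels are on this scale, and a difference on it understates the change of low genes.

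Sums were compared with edgeR 4.0.16 (quasi-likelihood test, TMM, filterByExpr, all granule groups in one fit, R 4.3.3), with Benjamini-Hochberg adjustment over all genes tested and a threshold of 0.05. All 5 members passed the filter on low counts in each of 16 comparisons. DESeq2 1.42.0, limma 3.58.1 on mean log2(TPM+1), other filters and leaving out each mouse were alternatives. A>A FOS+ and FOS- mice were also compared by an exact two-sided permutation test over mice (scipy 1.17.1). It treats groups as separate although mice 24 to 27 gave both. The labels pair FOS+ and FOS- nuclei by mouse, and deviations of A>A nuclei from group means correlated by 0.043 within mice and -0.0054 between mice. Named genes were the 5 members, partner genes called or the 2 most abundant of each role, the 5 genes most like Sorcs3, and markers used to check labels, and Ngfr was added after its values were seen. Values of 2 genes that this rule names are not reported here. The edgeR test was tried on counts simulated for A>A FOS+ against FOS- and for 4 h against HC. Gene positions are from GENCODE vM21 and promoters from RefSeq.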

Additional observations from a re-analysis of the deposited data

Results flagged for a closer look

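Of 15 sets of mice and genes with 4 to 6 mice, 1 had a mouse that stood apart from the rest by Dixon's criterion, which by chance marks about 1 set in 20. Sorl1 had a mean log2(TPM+1) of 2.82 in A>A FOS- mouse 26, and the other 5 mice had 3.81, 3.87, 4.05, 4.12 and 4.21. In that mouse the summed TPM of the 12 glial and vascular genes was 492 (101 to 284 in the others) and the median total was 1890900 counts (1903800 to 2694300 in the others), and the part of either was not tested. FOS+ nuclei of the same mouse also had the lowest Sorl1 of their group, 2.89.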

How the results depend on the processing

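Limits come first from numbers of mice: 1 mouse in each 1 h granule group, 2 in HC, and 5 nuclei in HC mouse 7. The number of members called rose from 0 to 1 with limma at 4 h and 5 h (Sort1), with DESeq2 for DG against VIP and CA1 against VIP (Sorcs1), and for CA1 against VIP over left-out mice (0 to 1). It stayed at 0 with the mouse as a replicate block, where the fit was possible. Sort1 turned to -2.37 at 4 h and -2.47 at 5 h with limma and to -0.36 at 5 h with the lower nucleus filter, and over left-out mice it ran from -1.12 (through -0.02) to 0.77 and from -1.26 to 0.72. In A>A, Sorcs2 ran from -0.0640 (and -0.0428) to 0.69 and Sorl1 from -0.0395 (and -0.0341) to 0.31, and Sorl1 was -0.0721 with mice by number and date. Sorcs3 in CA1 at 1 h ran from -2.87 to 0.33 and was 0.53 with sums of 5 nuclei. In VIP nuclei at 1 h it was -0.0336 with the replicate block and -0.34 with sums of 5 nuclei, and -0.34 (and -0.15) to 2.12 over left-out mice, and for CA1 against VIP it was 1.02 with the block. By exact permutation over mice, Sorcs2 was 0.80 (p = 0.0846) by number and date, and left-out mice gave 0.67 to 1.25 for Sorcs2, 0.022 to 0.25 for Sorcs1, 0.55 to 0.88 for Sorl1 and -0.94 to -0.50 for Sort1. Causes were not tested.

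Counts of all genes called moved more than those of the members. With edgeR 11, 66, 60, 64, 10, 0 and 0 genes were called in the granule comparisons (1 h FOS+ against FOS-, 1 h FOS+ against HC, 4 h, 5 h, A>A, A>C, and A>A against A>C FOS+). DESeq2 called 991, 1696, 994, 2038, 830, 1057 and 1089, and limma 476, 627, 526, 1634, 231, 107 and 29. The direction moved as well: edgeR called 60 higher and 0 lower at 4 h and 57 and 7 at 5 h, and limma 114 and 412, and 127 and 1507. For the cell types (DG against CA1, DG against VIP, CA1 against VIP, Sub against CA1, CA3 against CA1) the counts were 22, 65, 74, 2 and 0 by edgeR, 652, 1079, 1101, 711 and 492 by DESeq2, and 116, 247, 249, 22 and 120 by limma. With the mouse as a replicate block, edgeR called 0 genes in place of 10 in A>A and of 11 at 1 h, 6 in place of 74 for CA1 against VIP and 0 in place of 2 for subiculum against CA1. No block could be fitted for DG against CA1 or VIP, for comparisons with HC, for A>C, or between A>A and A>C, which share no mouse. The lower nucleus filter gave 17 genes at 1 h, 128 at 5 h, 36 in A>A, 3 in A>C and 2 between A>A and A>C. Mice by number and date gave 5 at 1 h, 43 for 1 h FOS+ against HC, 36 at 5 h and 18 in A>A. DESeq2 size factors gave 5 in A>A, and the Arc filter off 41 at 5 h and 0 for subiculum against CA1. Sums of 5 nuclei gave 12 for DG against CA1, 43 for CA1 against VIP and 0 for subiculum against CA1. Leaving out mice gave 17 to 180 genes at 4 h and 20 to 204 at 5 h, lowest without HC mouse 7 and highest without HC mouse 6, and 1 to 37 in A>A. The ranges were 6 (without A>A mouse 24, 25 or 27) to 20 (without 5 h mouse 23) for 1 h FOS+ against FOS-, 21 (without HC mouse 7) to 168 (without HC mouse 6) for 1 h FOS+ against HC, 13 to 26 for DG against CA1, 31 to 66 for DG against VIP and 40 to 76 for CA1 against VIP. The 1 h comparison in subiculum could not be fitted with sums of 5 nuclei.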

Other observations

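Nuclei that were alone for their group and mouse entered no comparison, 14 in all, and members of the family differed widely among them. One HC granule nucleus of mouse 3 had a log2(TPM+1) of 8.07 for Sorl1, 1.17 for Sort1 and 0.23 for Sorcs3. Another, of HC mouse 5, had 8.18 for Sorcs1 and 1.45 for Sorcs3. Ivy nuclei of HC mice 4 and 5 had 6.67 and 4.89 for Sorcs1 and 4.55 and 3.29 for Sorcs3. That of HC mouse 8 had 0.83 and none. The 1 h FOS+ Ivy nuclei had 5.31 for Sorcs1 and 5.92 for Sorcs3 in mouse 5, and none and 0.46 in mouse 4. One HC VIP nucleus of mouse 8 had 6.48 for Sorcs1 and none for Sorcs3. These values have no replicate.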
